A study of Homo sapiens with 3 samples.

Results

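The genes described here encode the enzymes that make serine from a glycolytic intermediate, pass the carbon of serine to folate, and make asparagine. They are PHGDH, PSAT1, PSPH, SHMT1, SHMT2, MTHFD1, MTHFD2, MTHFD1L, ALDH1L2 and ASNS. These genes were chosen by name for their place in the pathway, with earlier results of these data known. All 10 had a row among the 20332 genes of the table. RNA sequencing was done on HCC827, an established human lung adenocarcinoma line that carries an activating EGFR mutation. There were 3 libraries of this line. One came from cells given DMSO, the vehicle, with no time stated, 1 from cells given compound 1 at 5 μM for 24 h, and 1 from cells given compound 2 at 5 μM for 24 h; the series title calls its compounds daphnane diterpenoids. Each group was 1 library, so no value has a replicate error and every difference is between 2 libraries, without a test.

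Serine is built in 3 steps from a phosphoglycerate of glycolysis. Serine hydroxymethyltransferases then split it into glycine and a carbon unit carried on tetrahydrofolate, in the cytosol by SHMT1 and in mitochondria by SHMT2. Carbon units leave mitochondria mostly as formate, and the cytosol uses them for thymidylate, purines and the recycling of methionine. Many tumour lines express the mitochondrial arm strongly. Several of these genes, ASNS above all, are known targets of ATF4, the transcription factor of the amino acid and integrated stress response, while genes of thymidylate synthesis belong to the programme of dividing cells.

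After either compound, ASNS and the genes PSAT1 and MTHFD2 were at least 2-fold higher than in the DMSO library, and SHMT1 was at least 2-fold lower. After compound 2, PSAT1 and MTHFD2 were close to 2-fold: PSAT1 lay under it in 3 of the 8 alternative settings, at log2 ratios of 0.90 to 0.95, and MTHFD2 in 1, at 0.81. The mitochondrial SHMT2 and MTHFD2 also differed from their cytosolic counterparts. MTHFD1L, also mitochondrial, was within 2-fold at 0.28 and 0.42, and the mitochondrial ALDH1L2 was barely detected. The mitochondrial SHMT2 had log2 ratios of 0.996 and 0.67, short of 2-fold after either compound, while its cytosolic counterpart SHMT1 was lower. MTHFD2 was higher, while the cytosolic MTHFD1 was 2-fold lower after compound 1 and at -0.79 after compound 2. Levels are in TPM, a unit that is corrected for gene length and scaled so that every library has the same sum, so a level is a share of all signal in its library. In bulk RNA a smaller share of cells that express a gene and less of its RNA per cell cannot be told apart. Ratios below are the log2 ratio of TPM + 1 between libraries, and 9 of the 10 genes passed the filter of a mean of at least 1 TPM, as did 11600 genes in all.

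After compound 1, 3 of these 9 genes passed 2-fold on the higher side and 2 on the lower side, where 14.7% and 8.09% of all tested genes did. After compound 2, 3 were higher and 1 lower, beside 12.6% and 6.56% of all tested genes. The median log2 ratio of the 9 was 0.85 after compound 1 and 0.42 after compound 2, and that of all tested genes was 0.11 and 0.09. The genes were chosen with earlier results of these data known, so these comparisons are not independent of the choice. Among all genes past 2-fold after compound 1, 64.5% were higher, and 48.3% once the trend with transcript length and GC content was subtracted. For compound 2 these shares were 65.8% and 47.8%. With that subtraction, 5 of the 9 genes were higher and 2 lower after compound 1, and 1 was higher and 2 lower after compound 2. Of all 11542 genes tested under that setting, 973 were higher and 1042 lower after compound 1, and 791 and 864 after compound 2. Subtraction centres the ratios on 0 by construction.

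**Figure D1:**
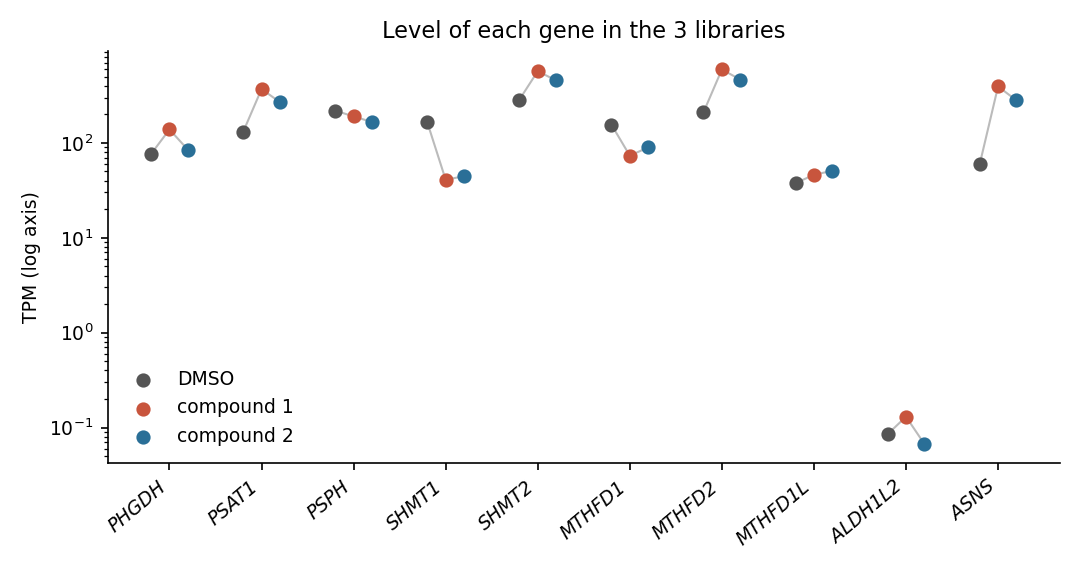
TPM of each of the 10 genes (log axis) in the DMSO, compound 1 and compound 2 libraries, 1 point per library, joined by a line per gene. ASNS, PSAT1 and MTHFD2 are highest after compound 1, SHMT1 and MTHFD1 are highest in the DMSO library, and ALDH1L2 lies at or under 0.130 TPM throughout.

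The serine synthesis genes did not move together. PHGDH (ENSG00000092621, chromosome 1, 119648411 to 119744226 on GRCh38), which oxidises phosphoglycerate in the first step, was at 76.5 TPM in the DMSO library, 139 TPM after compound 1 and 84.7 TPM after compound 2. The compound 1 library was the high one, with a log2 ratio of 0.85 to DMSO, and the compound 2 library lay near DMSO at 0.15. PSAT1 (ENSG00000135069, chromosome 9, 78297143 to 78330093), the aminotransferase of the second step, was at 130 TPM in the DMSO library, 369 TPM after compound 1 and 269 TPM after compound 2. Both compound libraries lay above DMSO, at log2 ratios of 1.49 and 1.04. The second value is just past 2-fold and was 0.95 and 0.93 under median-of-ratios and upper-quartile scaling. PSPH (ENSG00000146733, chromosome 7, 56011051 to 56051604), the phosphatase that releases serine, was at 219, 190 and 166 TPM in the same order of libraries. Its log2 ratios were -0.21 and -0.40, and the first was 0.01 once the length and GC trend was taken out. Levels are length-corrected, so genes can be set beside each other within a library: the TPM of PSAT1 was 0.595 times that of PSPH in the DMSO library, 1.94 times after compound 1 and 1.62 times after compound 2. Of the 31-mers of the longest PSAT1 transcript, 15.6% also occur in other genes, and of PSPH 17.6%, with the pseudogenes PSAT1P3 and PSPHP1 the closest; for PHGDH none did.

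Of the 4 mitochondrial genes, SHMT2 and MTHFD2 were higher after both compounds, MTHFD1L was close to its DMSO level, and ALDH1L2 was barely detected. SHMT2 (ENSG00000182199, chromosome 12, 57229327 to 57234935), which splits serine in mitochondria, was at 285 TPM in the DMSO library, 570 TPM after compound 1 and 455 TPM after compound 2. The DMSO library was the lowest, and the log2 ratios were 1.00 (0.996, so just short of 2-fold) and 0.67. MTHFD2 (ENSG00000065911, chromosome 2, 74198562 to 74217565), the mitochondrial dehydrogenase and cyclohydrolase of folate, was at 210 TPM in the DMSO library, 594 TPM after compound 1 and 465 TPM after compound 2. It had log2 ratios of 1.50 and 1.14, the second 0.81 once the length and GC trend was taken out, and was the most abundant of the 10 genes in both compound libraries, after rank 3 in the DMSO library. MTHFD1L (ENSG00000120254, chromosome 6, 150865549 to 151101887), which releases formate, was at 37.6, 46.1 and 50.8 TPM, with log2 ratios of 0.28 and 0.42. ALDH1L2 (ENSG00000136010, chromosome 12, 105019784 to 105084577), which oxidises formyl-tetrahydrofolate in mitochondria to make NADPH, was at 0.085, 0.130 and 0.067 TPM. It was the gene that missed the filter, and it was lower than all but 5.46% of the genes above 0 in the DMSO library, so no ratio is read from it.

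**Figure D2:**
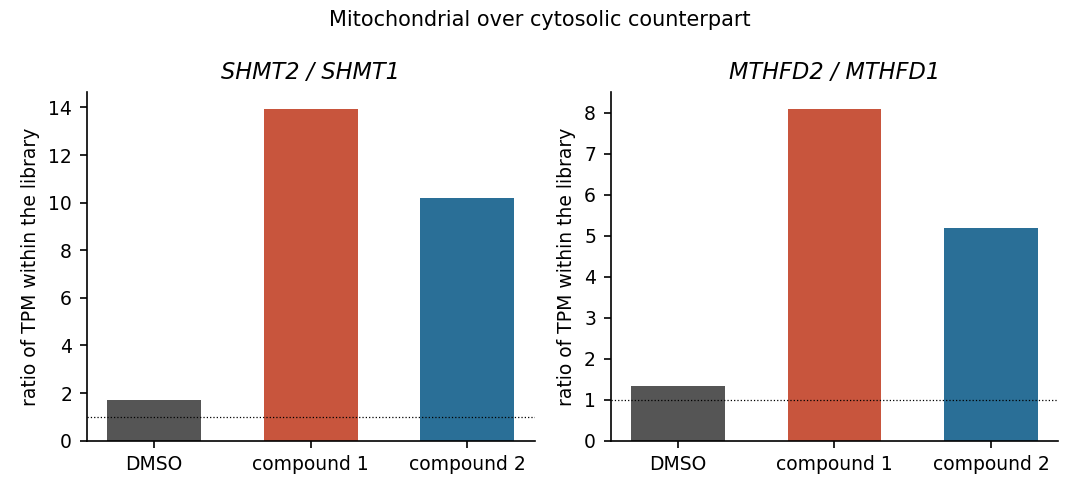
Ratio of TPM within each library of SHMT2 to SHMT1 (left) and of MTHFD2 to MTHFD1 (right); bars start at 0 and the dotted line marks equal levels. Both ratios stay above 1 in the DMSO library, at 1.73 and 1.34, and are several times higher in both compound libraries.

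The cytosolic pair was lower. SHMT1 (ENSG00000176974, chromosome 17, 18327860 to 18363563), the cytosolic hydroxymethyltransferase, was at 165 TPM in the DMSO library, 40.8 TPM after compound 1 and 44.6 TPM after compound 2. Both compound libraries lay far below DMSO and close to each other, with log2 ratios of -1.99 and -1.86. Only 1.68% of all tested genes had a lower ratio after compound 1, and 1.22% after compound 2. MTHFD1 (ENSG00000100714, chromosome 14, 64388031 to 64463457), the trifunctional folate enzyme of the cytosol, was at 156 TPM in the DMSO library, 73.3 TPM after compound 1 and 89.7 TPM after compound 2. Its log2 ratios were -1.08 and -0.79. They were -1.53 and -1.18 once the length and GC trend was taken out, which puts it past 2-fold after both compounds. Its longest transcript has 6814 bases, and 17.4% of its 31-mers occur in other genes, the pseudogene MTHFD1P1 being the closest.

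A ratio of 2 genes inside a library does not depend on how libraries are scaled to each other. SHMT2 was at 1.73 times the TPM of SHMT1 in the DMSO library, 13.9 times after compound 1 and 10.2 times after compound 2. The ratio of MTHFD2 to MTHFD1 was 1.34, 8.10 and 5.18 in the same libraries. Relative to DMSO, the first ratio was 8.07-fold higher after compound 1 and 5.90-fold higher after compound 2, and the second 6.03-fold and 3.85-fold. The mitochondrial MTHFD1L stayed below MTHFD1 in every library, at 0.241, 0.629 and 0.567 times its TPM. The summed level of the 4 mitochondrial genes was 532 TPM in the DMSO library, 1210 TPM after compound 1 and 971 TPM after compound 2, while that of SHMT1 and MTHFD1 was 321, 114 and 134 TPM. Over all 10 genes the sum was 1339, 2415 and 1904 TPM, which is 0.134%, 0.242% and 0.190% of the signal.

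ASNS had the largest ratio of the 10. ASNS (ENSG00000070669, chromosome 7, 97852118 to 97872542) encodes the synthetase that makes asparagine from aspartate with nitrogen from glutamine. It was at 59.3 TPM in the DMSO library, 394 TPM after compound 1 and 280 TPM after compound 2. Both compound libraries lay several-fold above DMSO, with log2 ratios of 2.71 and 2.22, and the gene went from rank 8 of the 10 in the DMSO library to rank 3 in both compound libraries. Of all tested genes 99.2% had a lower ratio after compound 1 and 98.8% after compound 2. A same-strand transcript that overlaps the gene, AC079781.5, holds 83.0% of the 31-mers of the longest ASNS transcript, so reads of these transcripts cannot be told apart and the value may hold both.

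The promoter letters that ATF4 is known to bind were looked for in the 250 bases before each start, using RefSeq windows on GRCh38.p14. Windows were at hand for 7 of the 10 genes, 11 windows in all, since MTHFD1L has 4 starts and ASNS 2. The C/EBP-ATF response element was searched as TGATGNAA on both strands, and 3.14% of 35116 windows of all genes held it. It was in 3 of the 11 windows, belonging to ASNS and MTHFD1L, and not in the windows of PHGDH, PSAT1, SHMT1, MTHFD1 and MTHFD2. That share is per window, and a gene with several starts has several windows. The stretches around it are shown because these genes hold nearly the same letters and differ in their ratios; capitals mark the match, and both read 5′ to 3′ on the strand of the gene.
ASNS, chr7:97872458-97872487, minus strand: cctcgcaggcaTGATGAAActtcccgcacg
MTHFD1L, chr6:150866346-150866375, plus strand: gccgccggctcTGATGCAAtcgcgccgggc

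In ASNS the match lies 68 to 61 bases before the upstream start. In MTHFD1L the same site falls in the windows of 2 neighbouring starts, 90 to 83 bases before one and 129 to 122 before the next. ASNS was among the highest ratios of all genes, and MTHFD1L was within 2-fold of DMSO after both compounds. An E-box, CACGTG, the letters bound by MYC among others, was in 3 of the 11 windows, against 6.34% of all windows. These belong to MTHFD1 and MTHFD1L, and the matching MTHFD1L windows hold the same site. The E2F letters TTTCCCGC, TTTGGCGC, TTTCGCGC and TTTGCCGC were in none of the 11 windows, against 2.79% of all windows. A match is a description of the window, and its absence says only that these letters are not there.

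**Figure D3:**
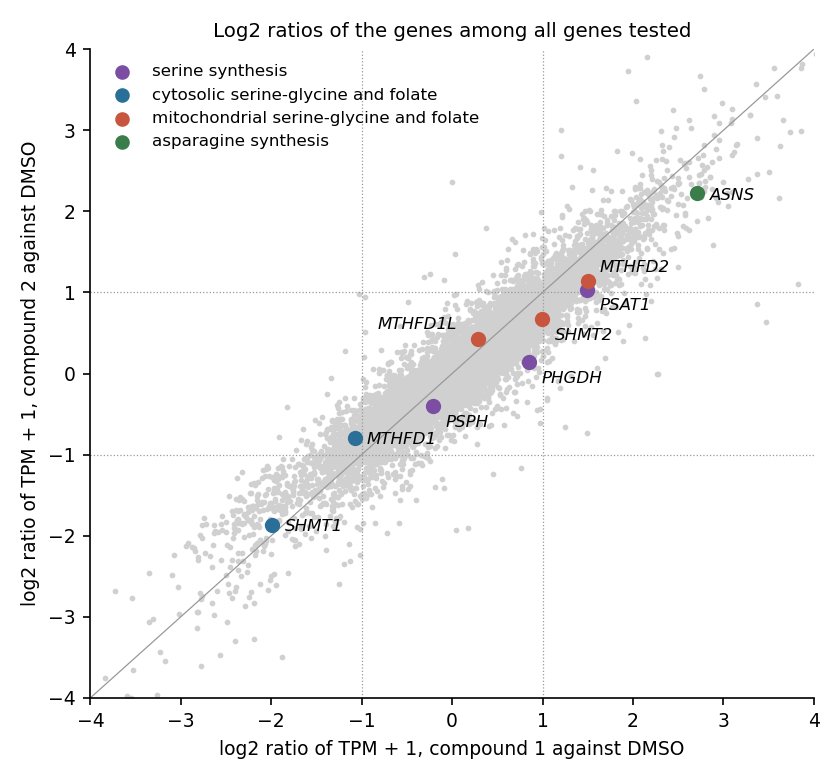
Log2 ratio of TPM + 1 to DMSO after compound 1 (x axis) and compound 2 (y axis), with the 9 tested genes in colour over all 11600 tested genes in grey, of which 28 lie beyond the axes; dotted lines mark 2-fold and the diagonal equal ratios. The axes share the DMSO library, so the grey cloud follows the diagonal in part by construction. ASNS lies at the upper right, SHMT1 at the lower left, and PHGDH to the right of the diagonal.

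Compound 2 was set against compound 1 directly, at the same dose and time. None of the 9 genes differed by 2-fold between these libraries, where 0.293% of all tested genes passed 2-fold on the higher side after compound 2 and 0.552% on the lower side. Of the 9, 6 were lower after compound 2 and 3 were higher, with a median log2 ratio of -0.32 beside -0.01 for all tested genes. PHGDH had the lowest value, a log2 ratio of -0.70, and 1.91% of all tested genes were lower still. ASNS followed at -0.49 and PSAT1 at -0.46, then MTHFD2 at -0.35, SHMT2 at -0.32 and PSPH at -0.19. The 3 genes that were higher after compound 2 were MTHFD1 at 0.29, MTHFD1L at 0.14 and SHMT1 at 0.12. With 1 library per compound, no interval can be given for these differences.

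By the order of the ratios against DMSO, ASNS was the highest and SHMT1 the lowest gene after either compound, and the genes nearest to them were looked up over the 2 ratios. Nearest to ASNS were CHAC1, a glutathione-degrading enzyme (log2 ratios 2.76 and 2.18), PNRC1 (2.79 and 2.26) and ZBTB41 (2.80 and 2.30). Nearest to SHMT1 were GPR19 (-1.99 and -1.85), GAMT, the methyltransferase that makes creatine (-2.00 and -1.88), and IGSF9 (-1.98 and -1.83). Within 0.25 of these points on the log2 plane lay 18 genes for ASNS and 47 for SHMT1, and likeness over 3 libraries is weak. Low levels also enter: GPR19 was at 5.65, 0.679 and 0.846 TPM, IGSF9 at 5.70, 0.693 and 0.883 TPM, and ZBTB41 at 1.965, 19.65 and 13.6 TPM. The pseudocount of 1 understates the ratios of these low genes. Their TPM differed from DMSO by a larger factor than that of SHMT1 or ASNS.

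Other genes of serine and glycine metabolism mostly stayed within 2-fold, as did most of all tested genes. At least 2-fold higher were 14.7% of all tested genes after compound 1 and 12.6% after compound 2, and 8.09% and 6.56% were lower. Of 16 listed genes 11 were tested, and 1 was higher after compound 1 and none after compound 2 (medians -0.35 and -0.13). That gene was PHYKPL, a phospholyase, at 11.7, 25.9 and 20.6 TPM (log2 ratios 1.08 and 0.76). Of the 11 other folate enzymes 9 were tested, with 2 higher and 2 lower after compound 1 and 2 lower after compound 2 (medians 0.49 and 0.49). Among the lower genes was TYMS, thymidylate synthase, at 162 TPM in the DMSO library, 23.0 TPM after compound 1 and 38.8 TPM after compound 2 (-2.76 and -2.03). It uses carbon units on folate, of which SHMT1 is 1 source. TYMS and SHMT1 were both at least 2-fold lower after both compounds, and a link between them was not tested. Among the higher genes was MTHFD2L, the paralog of MTHFD2, at 1.04, 3.86 and 2.76 TPM (1.25 and 0.89).

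Markers of dividing cells were lower in the same libraries. All 12 listed were tested and all 12 were at least 2-fold lower after each compound, beside 8.09% and 6.56% of all tested genes. Their medians were -2.21 and -1.56, and RRM2, a subunit of ribonucleotide reductase, was at 302, 44.3 and 87.3 TPM. PCNA, MCM2, MCM3, MCM7 and CCNB1 had log2 ratios of -2.09 to -2.34 after compound 1. The part of this in the values of SHMT1 and MTHFD1 was not tested. Epithelial markers were abundant in all libraries, with a summed level of 15268 TPM in the DMSO library, 7454 TPM after compound 1 and 7047 TPM after compound 2, and EPCAM and CDH1 were within 2-fold of DMSO. The keratin genes KRT8 (-1.75 and -2.05) and KRT18 (-1.18 and -1.35) were lower after both compounds and KRT19 (-0.78 and -1.03) after compound 2. The summed level of 5 fibroblast markers was at most 1.97 TPM in any library, that of 5 leukocyte markers at most 3.05 TPM and that of 4 endothelial markers at most 0.336 TPM, with COL1A2, DCN, LUM, CDH5 and KDR listed at 0 in every library. The fibroblast sum was nearly all COL1A1, at most 1.90 TPM, and of the leukocyte markers LYZ was the most abundant, at 1.86, 1.52 and 0.083 TPM.

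Genes of the ATF4 stress response, listed together with other known regulators of the pathway, had medians above 0 after both compounds. Of 16 listed genes 15 were tested (medians 1.04 and 0.87). After compound 1, 9 were higher and 1 lower, beside 14.7% and 8.09% of all tested genes. After compound 2, 5 were higher and 2 lower, beside 12.6% and 6.56%. ATF4 itself was at 477, 811 and 638 TPM (0.77 and 0.42), within 2-fold after both compounds; it is known to be controlled largely at translation, which these data do not measure. The stress factor genes ATF3 (3.05 and 2.23), DDIT3 (2.50 and 1.70), CEBPG (2.09 and 1.48) and CEBPB (1.57 and 1.40) were higher, as was the phosphatase subunit gene PPP1R15A (2.03 and 1.79). TRIB3, an inhibitor of ATF4 activity, had log2 ratios of 1.90 and 0.99. ATF5 was lower after both compounds (-1.32 and -1.07). MYC, a known activator of serine synthesis genes, was at 220, 291 and 352 TPM (0.41 and 0.68).

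Genes around asparagine passed 2-fold about as often as all tested genes. Of 15 listed for aspartate, glutamine and asparagine 13 were tested (medians 0.42 and 0.26). After compound 1, 2 were higher and 1 lower, beside 14.7% and 8.09% of all tested genes. After compound 2, 1 was higher and 1 lower, beside 12.6% and 6.56%. NARS1, which charges tRNA with asparagine, was at 143, 322 and 278 TPM (1.16 and 0.95). ASRGL1, an enzyme that breaks down asparagine, was at 64.9, 11.7 and 12.3 TPM (-2.37 and -2.31), so it was lower where ASNS was higher.

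**Figure D4:**
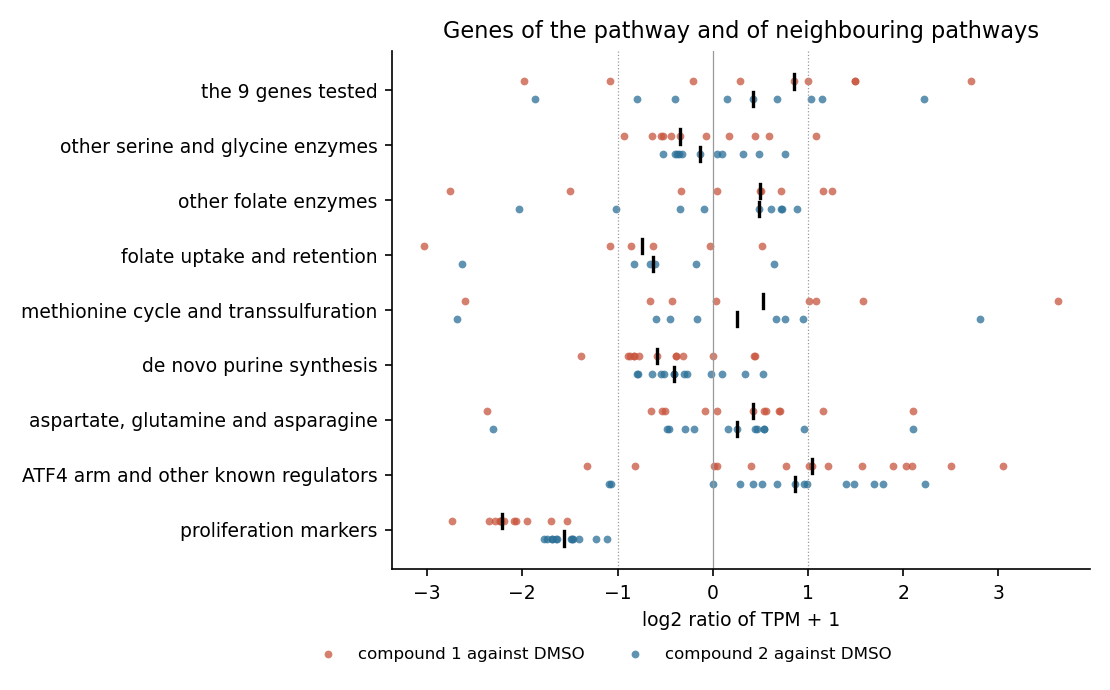
Log2 ratio of TPM + 1 to DMSO for every tested gene of each list (points) after compound 1 and compound 2, with the list median as a black bar and dotted lines at 2-fold. The 12 proliferation markers all lie below the lower line, while the 9 genes of the pathway lie on either side of 0.

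Subtracting the trend with transcript length and GC content moved several genes across 2-fold. After compound 1, PHGDH was then at 1.00 and SHMT2 at 1.08, so 5 of the 9 genes were higher, beside 973 of all 11542 genes tested under that setting. After compound 2, PSAT1 was at 0.90 and MTHFD2 at 0.81, which left ASNS, at 2.34, as the 1 gene higher. SHMT1 (-1.65) and MTHFD1 (-1.18) made 2 lower, and of the 11542 genes 791 were higher and 864 lower. Of the 9 tested genes, MTHFD2 had the lowest GC content in its longest transcript, 41.4%, over 4456 bases. Of the 31-mers of that transcript, 44.6% occur in other genes. The closest was SLC4A5 with 29.2%, an overlapping gene of the opposite strand at 0.144 to 0.365 TPM.

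**Figure D5:**
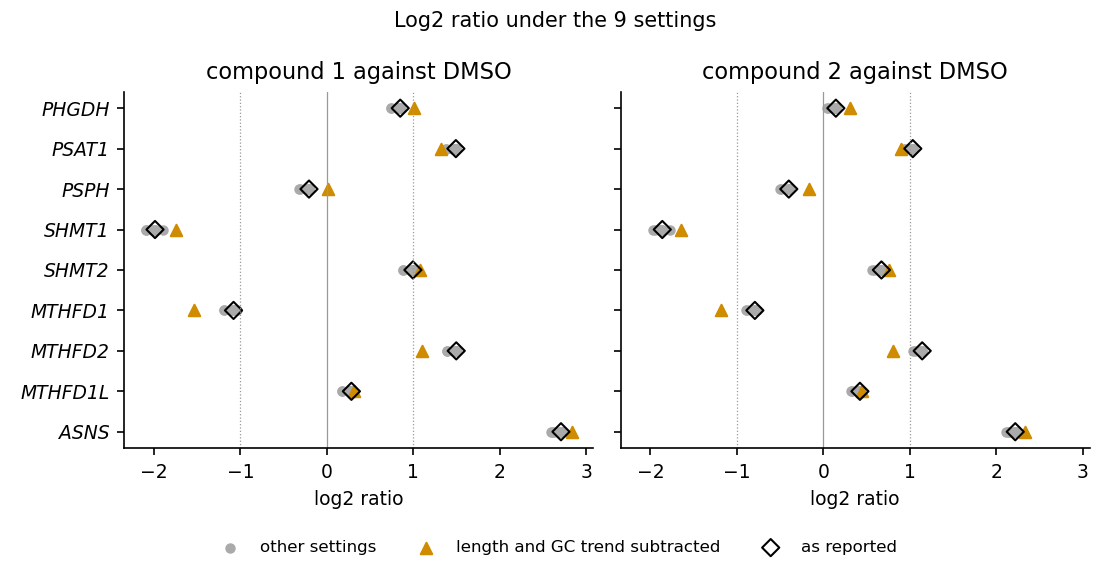
Log2 ratio of each of the 9 tested genes after compound 1 (left) and compound 2 (right) as reported (diamonds), with the length and GC trend subtracted (triangles) and under the other settings (grey points); dotted lines mark 2-fold. ASNS stays beyond 2-fold higher and SHMT1 beyond 2-fold lower under every setting shown, while MTHFD2 and PSAT1 after compound 2 lie near the line.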

How the data were processed

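Messenger RNA was measured by sequencing in 3 libraries, with RNA taken in Trizol and libraries made with a TruSeq kit per the labels' protocols; strand marking was not stated. Bowtie 0.12.2 and the builds GRCh38.p12 and mm8 are listed, with no role, per the submitters' processing notes. The authors deposited 1 table whose headers name FPKM, but its columns each sum to 1000000, so the values were treated as TPM. Depth is unknown, as TPM keeps no read counts; the smallest value above 0 was 0.005 to 0.007 TPM. The design assumed FPKM and was kept.

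Log2 ratios used a pseudocount of 1 and a mean of at least 1 TPM, which understates low genes. No p-value was computed. Genes were counted past 2-fold, and 8 alternative settings were computed. GENCODE 29 supplied coordinates, lengths and GC contents for 20089 gene identifiers; for 99.5% of tested genes the longest transcript gave length and GC, and medians of 20 bins were subtracted in turn. The steps were tested on simulated data. Python 3.11.15, NumPy 2.4.6 and pandas 2.3.3 were used.

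All 10 genes are named. In other lists, genes past 2-fold against DMSO are named, up to 6 per list by mean ratio; ATF4, MYC, ATF5, EPCAM and CDH1 were added after their values were seen, as were the genes listed at 0. A few listed genes that count in these lists are not reported here by name. The members and lists were chosen with earlier results of these data known.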

Additional observations from a re-analysis of the deposited data

How the results depend on the processing

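With 1 library in each group, no replicate could be left out, and counting error could not be separated from a difference. No paired analysis was possible because no group has a second library. Over 8 alternative settings (pseudocounts of 0.1 and 5, no filter, a mean of at least 5 TPM, median-of-ratios and upper-quartile scaling, removal of the 13 mitochondrially encoded genes, and subtraction of the length and GC trend), no value past 2-fold changed sign. Length and GC subtraction gave 5 genes higher after compound 1 in place of 3, 1 higher after compound 2 in place of 3, and 2 lower after compound 2 in place of 1. Of all 11542 genes tested under that setting, 973 were higher after compound 1, and 791 were higher and 864 lower after compound 2. The cause was not tested. Median-of-ratios and upper-quartile scaling put PSAT1 after compound 2 at 0.95 and 0.93, under 2-fold. ASNS ranged from 2.60 to 2.83 after compound 1 and from 2.12 to 2.34 after compound 2. The median of all tested genes after compound 1, 0.11, was 0.01 under either of these scalings, so ratios against DMSO shift down by about that difference.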

Other observations

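Genes of folate uptake were lower or within 2-fold. Of 7 listed genes 6 were tested (median log2 ratios -0.74 and -0.63). At least 2-fold lower were 2 after compound 1 and 1 after compound 2, beside 8.09% and 6.56% of all tested genes. FOLR1, a folate receptor, was at 16.8 TPM in the DMSO library, 1.18 TPM after compound 1 and 1.86 TPM after compound 2 (-3.04 and -2.64). GGH, which trims the glutamate tail that retains folate in cells, was at 47.5, 21.9 and 29.8 TPM (-1.08 and -0.65). SLC25A32, a mitochondrial folate carrier, was named after its values were seen; it was at 20.4, 29.7 and 32.5 TPM (0.52 and 0.64).

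Transsulfuration, which turns homocysteine and serine into cysteine, stood on the higher side. CTH, its second enzyme, was at 10.2, 137 and 77.4 TPM (3.63 and 2.81), and CBS, its first, at 33.8, 73.1 and 58.1 TPM (1.09 and 0.76). Of 12 listed genes of the methionine cycle and transsulfuration 8 were tested. Of these, 4 were higher and 1 lower after compound 1, beside 14.7% and 8.09% of all tested genes. After compound 2 there was 1 of each, beside 12.6% and 6.56%. MAT2B (1.01 and 0.67) and AHCYL2 (1.57 and 0.95) were the other higher genes after compound 1, and NNMT, a methyltransferase that consumes the methyl donor, was the lower one at 72.8, 11.2 and 10.5 TPM (-2.60 and -2.69). All 13 listed genes of purine synthesis were tested; 1 was lower after compound 1, PFAS at 41.2, 15.2 and 23.3 TPM (-1.38 and -0.80), and none was past 2-fold after compound 2. Their medians were -0.58 and -0.41.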
